A study of Mus musculus with 3 samples.

Results

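Adam28, Dmtn, Sncg, Anxa8 and Fam25c are 5 mouse genes of chromosome 14, among the 31053 genes counted, that differ in bladder lining cells without the lysophosphatidic acid receptor Lpar6. They were chosen by their measured difference in level between the Lpar6 knockout and wild-type libraries, so that difference is given here as a description and not as a finding. The urothelium, the epithelium that lines the bladder, was measured cell by cell, by sequencing the RNA of single cells in droplets, in 3 libraries: 1 of wild-type mice, 1 of Lpar6 knockout mice and 1 of Cab39l knockout mice. Each library pooled urothelial cells of 15 mice, released with trypsin, passed through a strainer and cleared of red cells on Ficoll. The labels give no treatment, strain, age or sex, and do not say how either allele was made, which part of a gene was removed or how the mice were crossed. With 1 library per group there is no replicate check, and no test was run. Intervals are exact 95% intervals that cover counting error only.

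Lpar6 encodes a G protein-coupled receptor for the lipid mediator lysophosphatidic acid, which acts on the actin cytoskeleton through the small GTPase RhoA. Adam28 encodes a metalloprotease of the ADAM family with membrane-bound and secreted forms, first known from lymphocytes. Dmtn encodes dematin, an actin-bundling protein of the red cell membrane skeleton. Sncg encodes gamma-synuclein, a small soluble protein best known from neurons, and Anxa8 encodes an annexin, a protein that binds phospholipid membranes in the presence of calcium. Fam25c is given by its name only. In the urothelium, Krt5 marks the basal cells next to the stroma, whereas Psca, a surface protein, and the uroplakins, the membrane proteins of the luminal plaque, rise towards the lumen.

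Sncg, Fam25c and Anxa8 lie close together, and the 250 bases before their start are shown because these neighbouring genes did not move in the same direction. The sequences are from RefSeq on GRCm38.p6, each written 5′ to 3′ on the strand of its gene. They span chr14:34374670-34374919 on the minus strand for Sncg, chr14:34355394-34355643 on the minus strand for Fam25c and chr14:34085729-34085978 on the plus strand for Anxa8. Capitals mark motif matches.
Sncg: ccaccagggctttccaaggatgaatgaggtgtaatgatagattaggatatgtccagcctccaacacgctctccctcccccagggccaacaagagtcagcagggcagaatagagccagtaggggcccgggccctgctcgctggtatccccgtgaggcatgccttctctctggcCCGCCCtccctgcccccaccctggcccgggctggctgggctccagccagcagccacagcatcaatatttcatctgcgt
Fam25c: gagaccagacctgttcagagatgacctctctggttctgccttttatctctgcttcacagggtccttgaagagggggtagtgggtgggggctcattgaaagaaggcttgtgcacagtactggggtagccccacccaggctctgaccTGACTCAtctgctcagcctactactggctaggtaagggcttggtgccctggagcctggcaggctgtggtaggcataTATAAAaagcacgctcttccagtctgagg
Anxa8: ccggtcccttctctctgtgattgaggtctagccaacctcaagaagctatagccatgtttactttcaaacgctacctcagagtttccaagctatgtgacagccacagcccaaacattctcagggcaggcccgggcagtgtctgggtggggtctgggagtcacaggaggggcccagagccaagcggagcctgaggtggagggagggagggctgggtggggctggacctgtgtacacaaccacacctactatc
In Sncg the capitals are GGGCGG, the core of a GC box, read on the opposite strand 78 to 73 bases before the start. In Fam25c they are TGANTCA, an AP-1-type motif that reads alike on both strands, 105 to 99 bases before the start, and the core promoter motif TATAAA, 29 to 24 bases before it. Anxa8 held none of the 6 motifs searched on both strands. Over 32851 RefSeq promoters, windows of this length held the motif TATAAA in 12.4%, the CCAAT box in 33.8%, the motif GGGCGG in 32.7%, the motif TGANTCA in 6.75%, the TEAD-type motif GGAATG in 12.6% and the CArG box in 1.47%. The GENCODE vM21 gene models of Sncg and Fam25c begin further upstream than the RefSeq starts, so part of these windows lies inside them. No window was given for Adam28 and Dmtn.

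On mm10 the 5 genes form 2 groups along chromosome 14, both on the centromere side of Lpar6, which runs from 73237895 to 73243294 on the plus strand inside the bounds of Rb1. Adam28 (ENSMUSG00000014725) spans 68606027 to 68655842 on the minus strand, 4.63 Mb from the start of Lpar6. Dmtn (ENSMUSG00000022099) spans 70601263 to 70636048 on the minus strand, at 2.64 Mb. The other group is an order of magnitude farther away. Anxa8 (ENSMUSG00000021950) spans 34085981 to 34100571 on the plus strand, at 39.2 Mb, and A630023A22Rik overlaps it on the other strand. Fam25c (ENSMUSG00000043681) spans 34351881 to 34355433 and Sncg (ENSMUSG00000023064) 34370274 to 34374789, both on the minus strand and both at 38.9 Mb. The gap between Fam25c and Sncg is 14.8 kb, and that between Anxa8 and Fam25c is 251 kb. Cab39l, the gene targeted in the third library, is on the same chromosome, 13.8 Mb from Lpar6. Absence of the receptor and any chromosome 14 DNA inherited together with the targeted allele would be found in the same library, and the 3 libraries hold nothing that separates them, so they cannot be told apart.

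Lpar6 had 0 UMIs, that is counted RNA molecules, in all 8293 barcodes of the Lpar6 knockout library, against 1547 in the wild-type and 2139 in the Cab39l knockout library. Cab39l stood at 113 CPM, that is UMIs scaled to a common library total, in wild-type, 93.9 CPM in Lpar6 knockout and 31.9 CPM (4541 UMIs) in Cab39l knockout urothelial-like cells, so Cab39l RNA was 3.54-fold (3.41 to 3.67) lower than in wild type but still counted there. Which part of the gene the allele lacks is not given in the labels, so these 3′ counts do not check that allele. After filters, 4066 wild-type, 5488 Lpar6 knockout and 6258 Cab39l knockout cells were kept, of which 2994, 4451 and 4994 were urothelial-like, with median depths of 21452, 26571 and 29041.5 UMIs. They fell into 20 clusters, computed without any chromosome 14 gene. Only 1 urothelial-like cluster was basal-like and 1 intermediate-like by its markers, none was umbrella-like, and the others stayed unnamed. Cluster 3, called basal-like, had 3 basal markers at over 2-fold, with Krt15 but also the intermediate marker Krt4 among its leading genes. Cluster 4, led by Trf, Krt15 and Krt5, held 2 basal markers among its leading genes but stayed unnamed because fewer than 3 passed 2-fold, so basal cells may lie in both. The wild-type library stood apart: 1846 of its cells made up most of cluster 1, led by Gm42418 and Lars2. Immune-like cells were 16.5% of its kept cells, against 2.004% in Lpar6 knockout and 3.61% in Cab39l knockout. Levels of macrophage and dendritic markers summed over urothelial-like cells were 8.13 CPM in wild type, 1.32 CPM in Lpar6 knockout and 3.003 CPM in Cab39l knockout, and 2, 3 and 2 of the 9 markers were at 0. The libraries shared 16 to 19 barcodes per pair, and 4 to 9 among kept cells. Main differences are therefore also given against the Cab39l knockout library, without the wild-type one. These comparisons share libraries and are not independent of each other.

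Adam28 was low in the Lpar6 knockout library. In urothelial-like cells the wild-type level was 97.5 CPM (95.2 to 99.8; 6953 UMIs), beside 19.7 CPM (18.9 to 20.5; 2277 UMIs) in Lpar6 knockout and 83.8 CPM (82.3 to 85.3; 11948 UMIs) in Cab39l knockout. The knockout of the receptor thus had the lowest level by far, and the other 2 libraries lay close together. Adam28 was 4.95-fold (4.73 to 5.20) lower in Lpar6 knockout than in wild type and 4.26-fold (4.07 to 4.46) lower than in Cab39l knockout.

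Dmtn was high in the same library. The wild-type level was 3.97 CPM (3.52 to 4.46; 283 UMIs), beside 21.1 CPM (20.2 to 21.9; 2438 UMIs) in Lpar6 knockout and 3.56 CPM (3.25 to 3.88; 507 UMIs) in Cab39l knockout. The ratio of Lpar6 knockout to wild type was 5.31 (4.69 to 6.03), and to Cab39l knockout 5.92 (5.38 to 6.53). The intervals of the wild-type and Cab39l knockout levels of Dmtn overlapped.

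Sncg was close to undetected outside the Lpar6 knockout library. There were 16 UMIs in wild type (0.224 CPM, 0.128 to 0.364), 1456 in Lpar6 knockout (12.6 CPM, 11.9 to 13.2) and 46 in Cab39l knockout (0.323 CPM, 0.236 to 0.430). The ratio was 56.1 (34.4 to 98.4) against wild type and 39.0 (29.1 to 53.5) against Cab39l knockout. Among 13321 genes with at least 50 UMIs over the 3 libraries, Sncg had the second largest log2 difference between Lpar6 knockout and wild type in either direction, after Lpar6 itself.

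Anxa8 was low in Lpar6 knockout, with 26.6 CPM (25.4 to 27.8) in the wild-type library, 8.89 CPM (8.36 to 9.45) in Lpar6 knockout and 22.4 CPM (21.7 to 23.2) in Cab39l knockout. It was 2.99-fold (2.77 to 3.23) lower than in wild type and 2.52-fold (2.35 to 2.71) lower than in Cab39l knockout.

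Fam25c was the most abundant of the 5 in every library and, in CPM, the one with the smallest relative difference. The wild-type library had 376 CPM (372 to 381), beside 692 CPM (687 to 697) in Lpar6 knockout and 402 CPM (398 to 405) in Cab39l knockout. The ratio of Lpar6 knockout to wild type was 1.84, and to Cab39l knockout 1.72, so Fam25c did not reach 2-fold against either library. That call and the ranking against wild type depended on the scaling. With TMM factors the log2 difference to wild type was 1.28 for Fam25c and -1.10 for Anxa8, which was then the smallest of the 5.

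**Figure D1:**
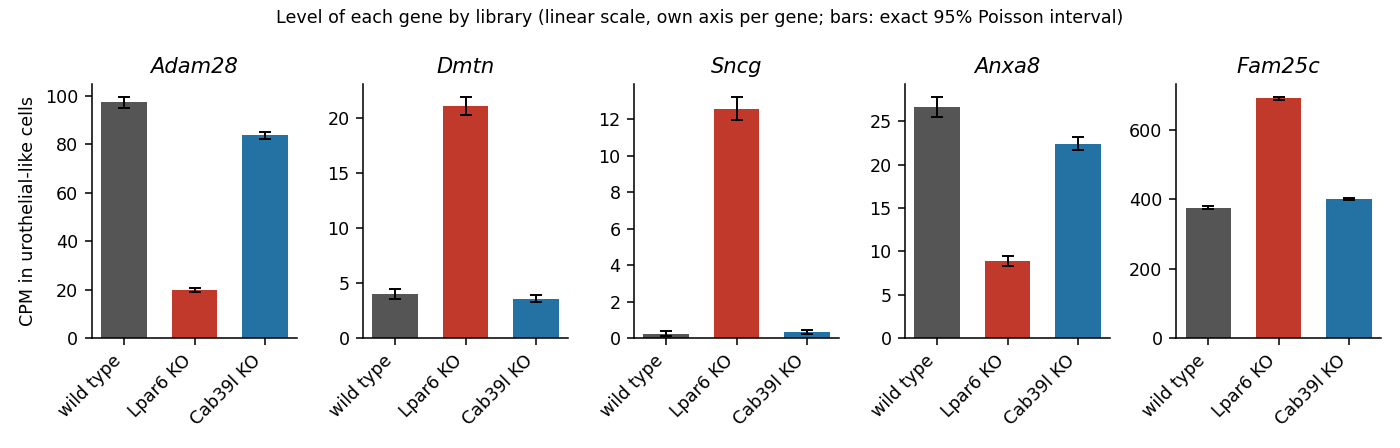
Level in urothelial-like cells (CPM, linear axis from 0, a separate axis for each gene) in the wild-type, Lpar6 knockout and Cab39l knockout libraries, 1 bar per library with its exact 95% Poisson interval. In each gene the Lpar6 knockout bar differs from the other 2, which lie close together: Adam28 stands at 19.7 against 97.5 and 83.8 CPM, Sncg at 12.6 against 0.224 and 0.323 CPM.

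On the log2 scale with 1 CPM added, the differences between Lpar6 knockout and wild type were -2.25 for Adam28, 2.15 for Dmtn, 3.47 for Sncg, -1.48 for Anxa8 and 0.88 for Fam25c. The median over 12743 genes was -0.30, and relative to it the 5 values were -1.95, 2.46, 3.78, -1.18 and 1.18. Against Cab39l knockout, where the median of all genes was 0.00, they were -2.04, 2.28, 3.36, -1.24 and 0.78. At least 2-fold on this scale was reached by 4 of the 5 against wild type, where 2.62% of all tested genes were (0.204% higher, 2.42% lower). It was reached by the same 4 against Cab39l knockout, where 0.617% of genes were. The first count is fixed by how the genes were picked. The second uses the same Lpar6 knockout counts and is not independent of that choice. Between Cab39l knockout and wild type, 0 of the 5 reached 2-fold, where 3.1% of genes did. Ratios of Cab39l knockout to wild type were 0.860 (0.835 to 0.886) for Adam28, 0.896 (0.774 to 1.04) for Dmtn, 1.44 (0.799 to 2.72) for Sncg, 0.843 (0.796 to 0.892) for Anxa8 and 1.07 (1.05 to 1.08) for Fam25c. Relative to the median of all genes, -0.28, the log2 differences of Adam28 and Anxa8 in that comparison were 0.06 and 0.04.

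To see how far the differences depended on the state of the cells, urothelial-like cells were thinned to 5000 UMIs and divided by their Krt5 UMIs (0, 1 to 2, 3 or more) or by their Psca UMIs (0 to 1, 2 to 5, 6 or more). The makeup differed between libraries. Cells with 6 or more Psca UMIs were 24.7% of wild-type, 56.4% of Lpar6 knockout and 44.1% of Cab39l knockout cells. Cells with 3 or more Krt5 UMIs were 25.2%, 11.5% and 27.3%. In each of the 6 bins, and in each of the 9 bins made from both genes together, all 5 genes kept the direction seen over all urothelial-like cells, against wild type and against Cab39l knockout, with an interval on 1 side of equality.

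Adam28 hardly varied over the Krt5 and Psca bins. Between urothelial-like clusters it varied more, from 70.6 to 107 CPM in wild type and from 16.5 to 39.2 CPM in Lpar6 knockout. In Cab39l knockout the clusters ranged from 75.9 to 118 CPM for Adam28. Its wild-type level was 98.9 CPM in cells without a thinned Krt5 UMI, 97.2 CPM at 1 to 2 and 95.7 CPM at 3 or more. The Lpar6 knockout levels were 19.9, 18.9 and 20.7 CPM, and the Cab39l knockout levels 84.8, 85.2 and 79.7 CPM. Dmtn was nearly as flat, at 20.5, 21.6 and 21.4 CPM over the Krt5 bins of the Lpar6 knockout library, against 3.94, 3.76 and 4.26 CPM in wild type. Over the joint bins the log2 difference to wild type stayed between -2.45 and -2.09 for Adam28 and between 1.73 and 2.81 for Dmtn. To Cab39l knockout it stayed between -2.22 and -1.88 for Adam28 and between 2.11 and 2.77 for Dmtn.

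Sncg followed Psca within the Lpar6 knockout library. Its level was 4.94 CPM (39 UMIs) at 0 to 1 Psca UMIs, 7.66 CPM (292 UMIs) at 2 to 5 and 16.1 CPM (1123 UMIs) at 6 or more. In the Cab39l knockout library the 3 bins held 6, 15 and 25 Sncg UMIs (0.347, 0.278 and 0.352 CPM), and in wild type 2, 5 and 9 UMIs, so a slope could not be read there. The ratio of Lpar6 knockout to Cab39l knockout was 14.2 (5.98 to 41.1), 27.6 (16.4 to 49.9) and 45.9 (30.9 to 71.2) from low to high Psca.

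Anxa8 ran the other way with Psca, and did so in each library. Its level fell from 28.6 to 27.8 and 23.4 CPM in wild type, from 26.7 to 23.9 and 20.3 CPM in Cab39l knockout and from 12.04 to 11.1 and 7.33 CPM in Lpar6 knockout. Its fold between Lpar6 knockout and wild type was lowest at 2.38 (1.91 to 2.99) in cells with few Psca UMIs and 3.19 (2.82 to 3.61) in cells with many, and these intervals overlap. Against Cab39l knockout the folds were 2.22 (1.77 to 2.80) and 2.77 (2.504 to 3.07).

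Fam25c moved strongly with state in each library. From the lowest to the highest Psca bin it went from 151 to 324 and 629 CPM in wild type, from 244 to 468 and 866 CPM in Lpar6 knockout and from 136 to 287 and 553 CPM in Cab39l knockout. Over the Krt5 bins it fell, from 579 to 315 and 177 CPM in wild type and from 800 to 620 and 470 CPM in Lpar6 knockout. Within Psca bins its ratio of Lpar6 knockout to wild type was 1.62, 1.44 and 1.38, each below the 1.84 over all urothelial-like cells. Against Cab39l knockout it was 1.79, 1.63 and 1.56, on both sides of the 1.72 over all urothelial-like cells. The higher share of high-Psca cells in Lpar6 knockout moved with Fam25c, and its part in the difference was not tested beyond these bins. Within Krt5 bins the ratio to wild type was 1.38 in cells without a thinned Krt5 UMI, 1.97 at 1 to 2 and 2.66 at 3 or more. The ratio to Cab39l knockout was 1.35, 1.73 and 2.10. Unthinned, Krt5 was found in 93.2% of wild-type, 88.3% of Lpar6 knockout and 94.9% of Cab39l knockout urothelial-like cells, so the first bin is not a Krt5-negative class.

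**Figure D2:**
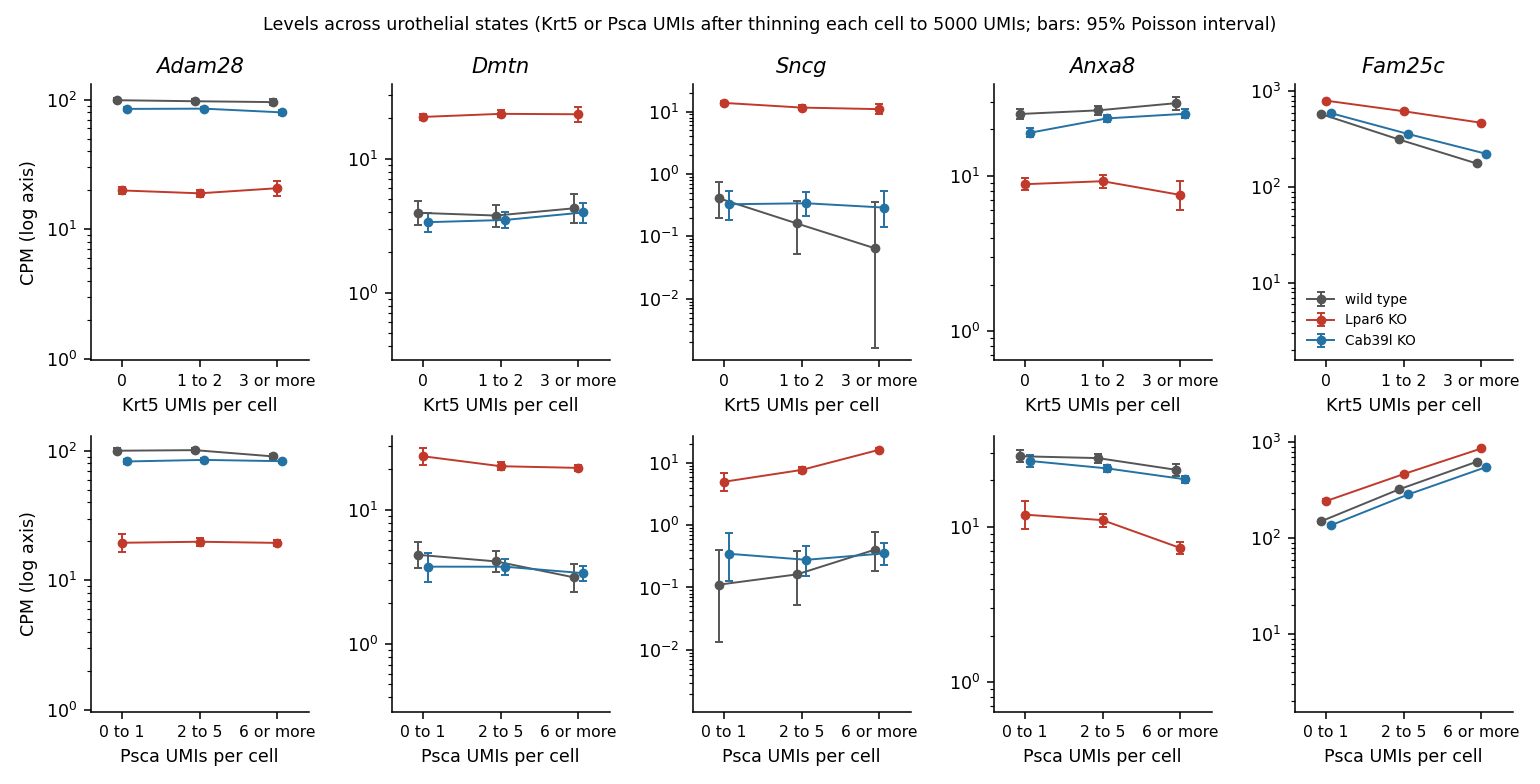
Level (CPM, log axis) of each gene in bins of urothelial-like cells by Krt5 UMIs (upper row) and by Psca UMIs (lower row), 1 line per library, with exact 95% Poisson intervals. The Adam28 and Dmtn lines are nearly level, the Sncg line of the Lpar6 knockout library rises with Psca from 4.94 to 16.1 CPM, and the 3 Fam25c lines rise together with Psca and fall with Krt5.

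Bins by the depth of the cell kept the directions, but levels in the shallow cells stood apart. In cells of 10000 to 30000 UMIs, Adam28 stood at 101 CPM in wild type, 20.6 CPM in Lpar6 knockout and 86.3 CPM in Cab39l knockout, and in cells over 30000 UMIs at 91.6, 18.1 and 82.2 CPM. Dmtn stood at 4.58, 22.3 and 3.88 CPM in the first bin and at 3.16, 19.4 and 3.34 CPM in the second. Cells under 10000 UMIs had higher levels of Adam28, at 124, 29.7 and 104 CPM, and Dmtn was at 5.90 CPM (14 UMIs), 22.04 CPM (26 UMIs) and 6.39 CPM (12 UMIs) there. In cells under 10000 UMIs, Sncg had 14 UMIs in 183 Lpar6 knockout cells and 0 in 336 wild-type and in 286 Cab39l knockout cells. With a floor of 3 counts over each group, it was at least 9.40-fold higher than in wild type and at least 7.43-fold higher than in Cab39l knockout. Anxa8 narrowed in these shallow cells: the ratio was 0.601 (0.360 to 0.969) against wild type and 0.705 (0.412 to 1.17) against Cab39l knockout, with 23 UMIs in the Lpar6 knockout library. The Fam25c ratio to wild type was 2.21 in the shallow, 1.90 in the middle and 1.86 in the deep cells, and that to Cab39l knockout 1.85, 2.27 and 1.88.

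The share of cells with at least 1 UMI was compared after thinning each cell to 5000 UMIs, which left out 53 wild-type, 55 Lpar6 knockout and 82 Cab39l knockout cells. Adam28 was found in 40.4% (38.6 to 42.2) of wild-type, 9.42% (8.57 to 10.3) of Lpar6 knockout and 34.7% (33.3 to 36.0) of Cab39l knockout cells. Unthinned, the Adam28 shares were 82.6%, 38.0% and 84.5%. Dmtn was found in 2.35%, 9.83% and 1.87% (unthinned 8.85%, 40.4% and 9.53%). Sncg was found in 0.102% (3 cells), 5.39% (237 cells) and 0.224% (11 cells), and unthinned in 0.534%, 19.1% and 0.821%. Anxa8 was found in 13.2%, 4.48% and 10.5% (unthinned 42.3%, 17.9% and 43.5%), and Fam25c in 57.5%, 83.2% and 63.8% (unthinned 80.6%, 97.3% and 90.1%).

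The spread over cells was harder to read where a gene had few UMIs per cell. For Dmtn in each library, and for Adam28 in Lpar6 knockout, thinned means were 0.104 UMIs per cell or less, too low to show modest unevenness. The variance of Dmtn counts was 1.01 times the mean in wild type, 1.02 in Lpar6 knockout and 1.02 in Cab39l knockout. For Adam28 in Lpar6 knockout it was 1.05 times the mean, and for Anxa8 there 1.16 times. In wild type and Cab39l knockout, the variance of thinned Adam28 counts was 0.984 and 1.02 times the mean, where counting alone gives a ratio near equality. Sncg was uneven in the Lpar6 knockout library, with a variance 1.53 times its mean of 0.0655 and up to 7 thinned UMIs in a cell. Fam25c had 2.86 to 3.56 times its mean and up to 49 UMIs. In the Lpar6 knockout library, a Fam25c UMI was present in 91.6% (87.3 to 94.8) of 237 cells with Sncg and in 82.7% (81.5 to 83.8) of 4159 cells without. A Dmtn UMI was present in 10.9% (8.04 to 14.3) of cells with Adam28 and in 9.72% (8.82 to 10.7) of cells without. With thinned means of 0.101 and 0.104 UMIs per cell for Adam28 and Dmtn, most cells had no UMI of either gene. These shares therefore cannot show whether the low Adam28 and the high Dmtn were held by the same cells.

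Basal-like cells (cluster 3, led by Cyp2f2, Krt15 and Krt4) showed each difference within 1 cluster. They numbered 351 in wild type, 253 in Lpar6 knockout and 817 in Cab39l knockout. Adam28 was 79.1, 17.6 and 78.4 CPM there, and Dmtn 3.53, 25.6 and 4.86 CPM. Sncg had 1, 34 and 6 UMIs (0.141, 7.37 and 0.352 CPM), and Anxa8 was 31.1, 13.9 and 29.9 CPM. Fam25c was lowest here of all urothelial-like clusters, at 69.8, 185 and 111 CPM. Sncg had fewer than 50 UMIs in each comparison and was not among the genes tested there. Of the other 4, 4 were at least 2-fold from wild type in basal-like cells, where 0.654% of all tested genes were, and 3 from Cab39l knockout, where 0.736% were. Again the first count reflects how the genes were picked, and the second, from the same Lpar6 knockout cells, is not independent of that choice. In cluster 4, with 29 wild-type, 675 Lpar6 knockout and 664 Cab39l knockout cells, Adam28 was 87.1, 18.7 and 81.9 CPM, Anxa8 26.8, 9.25 and 22.8 CPM and Fam25c 98.8, 296 and 150.4 CPM. Dmtn there had 1, 354 and 49 UMIs, and Sncg 0, 154 and 3.

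The intermediate-like cluster (cluster 17, led by Gsdmc2, Gsdmc3 and Reg3g) held the highest levels of Sncg and Anxa8. It had 68 Lpar6 knockout, 29 Cab39l knockout and 7 wild-type cells, too few in wild type for a fold. Sncg was 61.8 CPM (48.4 to 77.7; 73 UMIs) in Lpar6 knockout and 2.93 CPM (0.355 to 10.6; 2 UMIs) in Cab39l knockout. Anxa8 was 61.0 CPM (47.7 to 76.8) in Lpar6 knockout and 51.3 CPM (35.7 to 71.3) in Cab39l knockout. The ratio for Anxa8 was 1.19 (0.783 to 1.83), so the lower level seen elsewhere was not detectable here. Adam28 stayed low, at 18.6 CPM against 99.7 CPM, and Dmtn stayed high, at 23.7 CPM (28 UMIs) against 4.40 CPM (3 UMIs). Fam25c was 1108 CPM against 670 CPM.

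Cluster 8 was made up mainly of Lpar6 knockout cells (651, against 136 Cab39l knockout and 11 wild-type cells). Its leading genes were Ly6k, Sncg, Zfp990 and Lrmda, and Dmtn was the tenth. Chromosome 14 genes had no part in the clustering. Even so, genes high in the Lpar6 knockout library can lead a cluster made mainly of its cells, so these ranks largely restate the library difference. Sncg in the Lpar6 knockout cells of cluster 8 was 14.03 CPM, close to the 12.6 CPM over all Lpar6 knockout urothelial-like cells. It was 0.501 CPM (2 UMIs) in the Cab39l knockout cells of the cluster. Among the unnamed clusters there was 1 exception to the directions above. In cluster 0, led by Fam25c itself with Sprr2a3 and Psca, Fam25c was 949 CPM in 1099 Lpar6 knockout cells and 1048 CPM in 56 wild-type cells, a ratio of 0.906 (0.870 to 0.943), so it was lower there; against Cab39l knockout the ratio was 1.35 (1.33 to 1.37). In cluster 9 Anxa8 kept its direction against wild type, at a ratio of 0.709, but the interval (0.478 to 1.03) reached equality. In the other 7 of the 8 clusters compared with wild type, the Fam25c ratio lay between 1.32 and 3.001. Cluster 1, mostly of the wild-type library, showed the same directions in its 65 Lpar6 knockout cells. There, Adam28 was 39.2 CPM (26.3 to 56.3) against 107 CPM in wild type and 118 CPM in Cab39l knockout, and Dmtn was 27.04 CPM against 4.40 and 2.20 CPM.

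Immune-like cells (the clusters with markers of B cells, of T or NK cells, and of macrophages or dendritic cells) numbered 669, 110 and 226, with median depths of 2892, 2187 and 3502 UMIs, and gave few UMIs of the 5 genes. Adam28 had 25 UMIs in wild type (10.1 CPM), 1 in Lpar6 knockout (2.67 CPM) and 35 in Cab39l knockout (28.4 CPM). Dmtn had 2, 1 and 3 UMIs. Sncg had 0, 3 and 0 UMIs, and Anxa8 had 11, 2 and 5. Fam25c had 150, 85 and 167 UMIs (60.3, 227 and 136 CPM). The only gene of the 5 with 50 UMIs or more in the comparison of Lpar6 knockout with wild type was Fam25c, which was at least 2-fold higher, where 2.79% of genes were.

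The summed uroplakins, which immune cells do not make, set the level of urothelial RNA in these barcodes. Their immune-like level was 13.3% (12.9 to 13.8) of the urothelial-like level in wild type, 25.8% (24.3 to 27.4) in Lpar6 knockout and 23.6% (22.8 to 24.4) in Cab39l knockout. For Adam28 the same ratio was 10.3% (6.67 to 15.2) in wild type and 13.6% (0.344 to 75.8) in Lpar6 knockout, both including the uroplakin value. In Cab39l knockout it was 33.9% (23.6 to 47.2), with 35 UMIs counted against 24.3 at the uroplakin ratio. For Fam25c it was 16.0% (13.6 to 18.8) in wild type, 32.8% (26.2 to 40.6) in Lpar6 knockout and 33.8% (28.9 to 39.3) in Cab39l knockout. For Anxa8 it was 16.6% (8.28 to 29.8), 60.1% (7.27 to 218) and 18.1% (5.88 to 42.3). The interval for Fam25c lay just above the uroplakin value in wild type and Lpar6 knockout. In Cab39l knockout it lay clearly above, with 167 UMIs counted against 117 at the uroplakin ratio. The interval for Adam28 in Cab39l knockout began at 23.62%, just above the uroplakin value of 23.59%, whose own interval reached 24.4%. The immune-like Fam25c level, like that of the uroplakins, was lowest in wild type and highest in Lpar6 knockout. Those of Adam28 and Anxa8 did not follow that order. The part of urothelial RNA in the immune-like levels was not tested beyond these values. No library difference of the immune cells themselves was read from them. For shares, cells thinned to 1900 UMIs gave Adam28 in 1.16% (6 of 519) of wild-type, 1.45% (1 of 69) of Lpar6 knockout and 3.68% (7 of 190) of Cab39l knockout immune-like cells, against 17.2%, 4.08% and 14.9% of urothelial-like cells.

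**Figure D3:**
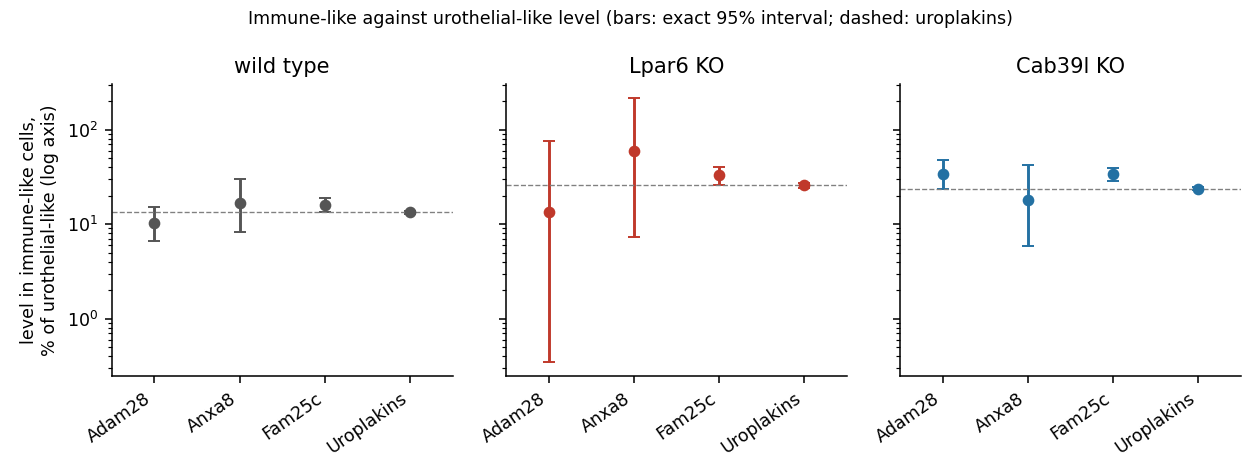
Level in immune-like cells as a percentage of that in urothelial-like cells (log axis) for Adam28, Anxa8, Fam25c and the summed uroplakins, 1 panel per library, with exact 95% intervals and the uroplakin value as a dashed line. In wild type and Lpar6 knockout the 3 genes sit at the uroplakin line within their intervals or, for Fam25c, just above it.

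Erythroid-like barcodes carried the differences too, with urothelial markers at 76.0% of their level over all cells. They numbered 195, 529 and 613. Adam28 was 83.5, 13.97 and 79.5 CPM there, and Dmtn, which red cell precursors also make, was 5.76 CPM (2 UMIs), 19.6 CPM (52 UMIs) and 6.17 CPM (19 UMIs). Sncg had 0, 27 and 1 UMIs.

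Across chromosomes, the Lpar6 knockout library stood at least 2-fold from both other libraries in 10 of 473 chromosome 14 genes with at least 50 UMIs in urothelial-like cells, or 2.11%. Over all genes it was 43 of 13321, a share of 0.323%, and 0.258% without chromosome 14. Of the 20 chromosomes compared, chromosome 14 had the highest share, and the next was chromosome 7 with 0.682%. Since 4 of the 10 genes are among the 5 described here, this count is not separate from the choice of genes. With the wild-type library as the one apart, chromosome 14 had 6 genes (1.27%), against 1.28% of all genes. With the Cab39l knockout library apart it had 2 (0.423%), which were Cab39l itself and Gm10076, against 0.143% of all genes. Chromosome 14 had the highest share of the 20 in this case too, and the next was chromosome 2 with 0.294%.

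The 10 genes were Lpar6, Sncg, Dmtn and Lrmda, a gene linked to melanocyte differentiation, Adam28, Anxa8, Adamdec1, Pdlim2, Trim13 and AC151836.1. Besides Sncg and Dmtn, Lrmda was higher in Lpar6 knockout, at 3.30 CPM in wild type, 15.2 CPM in Lpar6 knockout and 2.86 CPM in Cab39l knockout. Adamdec1, an ADAM-like protease gene, was at 14.7, 0.536 and 10.4 CPM. Pdlim2, a cytoskeletal adaptor, was at 8.62, 1.11 and 11.96 CPM, and Trim13, a ubiquitin ligase, was at 19.1, 5.45 and 16.3 CPM. AC151836.1 was at 6.09, 0.657 and 3.68 CPM and is annotated as antisense, so its reads and those of the partner strand may not be separable. At the 2-fold threshold, the genes just inside were Anxa8, Trim13 and AC151836.1, with the smaller of their differences at 1.24, 1.42 and 1.499 on the log2 scale. Those just outside were D830030K20Rik (0.99), Epsti1 (0.98) and Rpgrip1 (0.95).

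The 10 genes were not spread evenly. In windows of 10 Mb, 4 of 52 genes between 70 and 80 Mb, 3 of 61 between 60 and 70 Mb, 2 of 52 between 30 and 40 Mb and 1 of 60 between 20 and 30 Mb were apart. None of the 115 genes between 50 and 60 Mb was, nor any of those in the other windows. None of the 8 measured genes within 1 Mb of Lpar6 was apart from both libraries, and their log2 differences to wild type lay between -0.60 and 0.23. Rcbtb2 was at 22.1, 26.1 and 21.9 CPM and Itm2b at 2104, 2069 and 2320 CPM, which are the nearest measured genes on either side that do not overlap Lpar6.

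**Figure D4:**
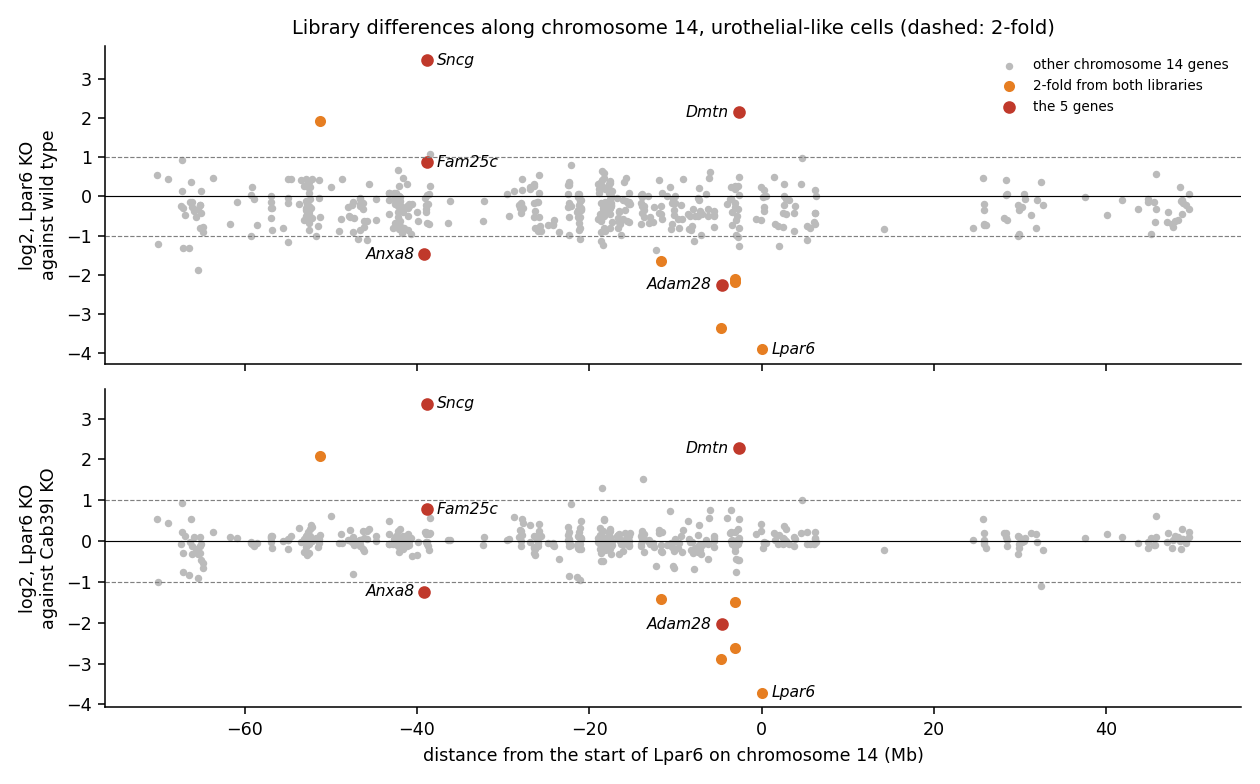
Log2 difference of the Lpar6 knockout library to wild type (upper) and to Cab39l knockout (lower) for 473 chromosome 14 genes in urothelial-like cells, by distance from the start of Lpar6 (Mb). Dashed lines mark 2-fold. Adam28 and Dmtn sit 4.63 and 2.64 Mb from Lpar6, and Sncg, Fam25c and Anxa8 about 39 Mb away, and most grey points lie between the dashed lines.

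**Figure D5:**
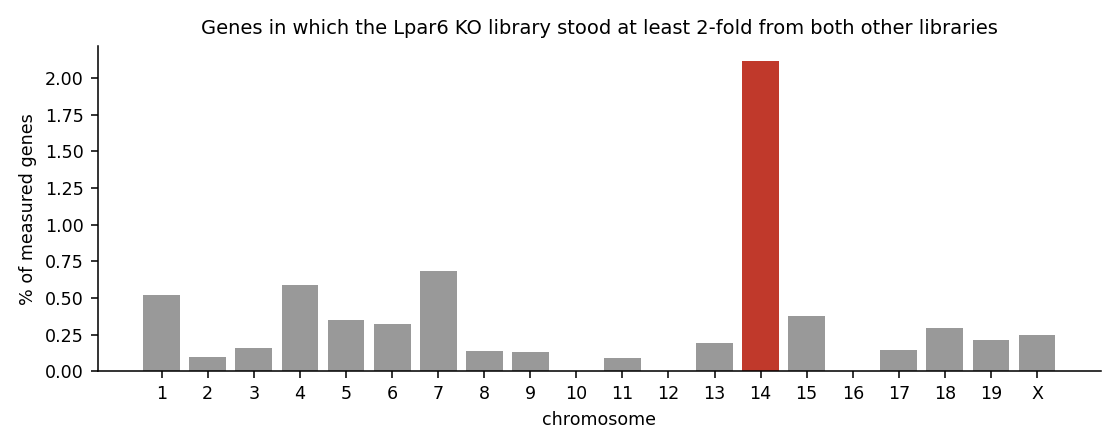
Share of measured genes (%) on each chromosome in which the Lpar6 knockout library was at least 2-fold from both other libraries in urothelial-like cells, 1 bar per chromosome. Chromosome 14 has 2.11% and the next, chromosome 7, 0.682%. Of the 10 chromosome 14 genes, 4 are among the genes described here.

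Neighbours did not all move with the 5 genes. Adamdec1, 23.9 kb from Adam28, was low in the Lpar6 knockout library like Adam28, whereas Slc25a37 on the other side, at 586 kb, was at 29.2, 25.4 and 16.9 CPM. Fam160b2, 1.43 kb from Dmtn, was at 22.6, 8.77 and 12.5 CPM, so it was lower in both knockouts while Dmtn was higher in 1. Npm2, 11.3 kb on the other side, was below 1 CPM in each library, at 0.322, 0.855 and 0.281 CPM (23, 99 and 40 UMIs). Like Dmtn, it was highest in Lpar6 knockout. Mmrn2, 0.676 kb from Sncg, had 0.168, 0.207 and 0.232 CPM. Glud1, 6.62 kb from Fam25c, was at 114, 90.9 and 77.7 CPM. Around Anxa8, Mapk8 was at 12.9, 7.95 and 8.03 CPM, and Gprin2 was below 1 CPM. Anxa11 and Anxa7 are also chromosome 14 annexins. Anxa11 was at 59.4, 31.2 and 55.2 CPM, and Anxa7 at 115, 87.0 and 110 CPM.

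Related genes were read from 5 lists chosen with earlier results known, each without the 5 genes. Of their measured genes, Adamdec1, Anxa7, Anxa11 and Vcl (in the RhoA and SRF list) are themselves on chromosome 14, and the others lie elsewhere. Of 7 measured ADAM protease genes, 0 were at least 2-fold higher and 1 lower (Adamdec1) in Lpar6 knockout against wild type, where 0.204% of all genes were higher and 2.42% lower, with a median log2 of -0.70 where that of all genes was -0.30. Against Cab39l knockout Adamdec1 was again the 1 called, and the median was -0.06. Adam10, a widely expressed sheddase, was at 130, 83.2 and 73.1 CPM, and Adam17, which releases TNF and EGF receptor ligands, at 24.7, 12.6 and 12.6 CPM. Their levels in the 2 knockouts were closer to each other than to wild type, whereas the Cab39l knockout level of Adam28 was closer to wild type. Of the ADAM28 substrates and binding partners only Itgb1 was measured against wild type, at 75.2, 52.0 and 43.6 CPM.

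Of 18 measured genes of the spectrin and actin membrane skeleton, where dematin acts, 0 were 2-fold higher and 1 lower (Epb41l3) than in wild type, beside 0.204% and 2.42% of all genes, and 0 reached 2-fold against Cab39l knockout, beside 0.617%. Their median log2 was -0.53 against wild type and 0.03 against Cab39l knockout. Sptbn1, a spectrin, was at 206, 118 and 99.7 CPM, and Add3, an adducin, at 193, 134 and 116 CPM. Of 9 measured annexins, 0 reached 2-fold against either library, beside 2.62% and 0.617% of all genes, with a median log2 of -0.09 against wild type and -0.30 against Cab39l knockout. Anxa2 was at 175, 216 and 264 CPM and Anxa4 at 169, 176 and 217 CPM. The RhoA and SRF list held genes of the G proteins that Lpar6 engages (Gna12 and Gna13) and genes of the pathway downstream of them. Arhgef12, an exchange factor for RhoA in this list, was at 146, 68.7 and 66.2 CPM. Of the 13 measured genes, 0 were 2-fold higher and 1 (Arhgef12) lower than in wild type, beside 0.204% and 2.42% of all genes. Against Cab39l knockout 0 reached 2-fold, beside 0.617%. Their median log2 was -0.56 against wild type, where that of all genes was -0.30, and -0.09 against Cab39l knockout, where it was 0.00. Actb was at 1887, 1356 and 1486 CPM, and Actg1 at 938, 1060.4 and 1380.4 CPM. 

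Likeness was measured as Pearson's r of log2 levels over 27 sums, which are 3 libraries by 3 Krt5 by 3 Psca bins and so share libraries and depth. Since the 5 genes were chosen by the difference between libraries, and Lpar6 is at 0 in 9 of the sums by design, a high r largely restates that difference and is given as a description only. Over 12544 genes, the 3 most like Adam28 were Lpar6 (0.99), Adamdec1 (0.99) and Bnip3l (0.97), all on chromosome 14. For Dmtn they were Zfp990 (0.96) on chromosome 4 and Rnase4 and Rpl36a-ps1 (0.95 each) on chromosome 14. For Sncg they were Mndal (0.97) on chromosome 1, Hddc3 (0.97) on chromosome 7 and Zfp990 (0.96). For Anxa8 they were Anxa11 (0.95), Trim13 (0.94) and B430010I23Rik (0.93). For Fam25c they were Gm13398 (0.97), Cystm1 (0.96) and Upk3a (0.95), a uroplakin, and its r with Psca was 0.91 and with Krt5 -0.73. Krt5 and Psca had r of 0.15 and -0.14 with Adam28.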

How the data were processed

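The authors deposited, for each library, a matrix of UMI counts, not normalized, of genes by cell barcodes. Per the submitters' processing notes, Cell Ranger 3.0.2 and the mm10 build were used; their annotation release: not given in the sources used here. Gene positions came from GENCODE vM21, which held 99.6% of the identifiers, and promoters from RefSeq. Cells with at least 500 genes and at most 20% mitochondrial UMIs were kept. Scrublet in scanpy 1.11.5 marked 22, 0 and 0 cells, too few, so the top 6% of scores were removed (260, 350 and 399 cells). From 2000 variable genes, 30 components and 15 neighbours, Leiden clusters (leidenalg 0.10.2) were made at resolution 1, without chromosome 14, sex-linked, ribosomal, mitochondrial and haemoglobin genes. Urothelial-like clusters reached 50% of the urothelial marker level of all cells. UMIs were summed per library and class (71319666, 115725947 and 142527954 in urothelial-like cells) and scaled to CPM. Named genes were the 5 genes, genes apart on chromosome 14, nearest neighbours, the 3 most alike and up to 4 abundant members of each list. The result of 1 further list is not reported here. The genes, lists and rules were chosen with earlier results of these data known. Steps were tested on simulated data. Python 3.11.15, numpy 2.4.6, scipy 1.17.1 and pandas 2.3.3 were used.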

Additional observations from a re-analysis of the deposited data

Results flagged for a closer look

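The difference between the Cab39l knockout and wild-type libraries had opposite directions for Adam28 in 2 classes of cells. On the log2 scale it was 1.41 in immune-like cells, with 35 and 25 UMIs, and -0.22 in urothelial-like cells, with 11948 and 6953 UMIs. In immune-like barcodes the uroplakins were also higher in Cab39l knockout, at 2500.1 CPM against 1153 CPM in wild type. Of the 35 Adam28 UMIs, 19 lay in 36 T- or NK-like cells (78.1 CPM), against 8 UMIs in 244 such wild-type cells (11.99 CPM). The difference between classes was not tested, and the part of urothelial RNA in it was not tested beyond these values.

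For Fam25c, the same contrast was 0.25 in cells under 10000 UMIs (246 against 207 CPM) and -0.25 in cells of 10000 to 30000 UMIs (238 against 284 CPM). In cells over 30000 UMIs it was -0.01. This difference between depths was not tested. Fam25c went with Psca in each library, and the share of high-Psca cells was 44.1% in Cab39l knockout and 24.7% in wild type.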

How the results depend on the processing

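None of the differences of the 5 genes over all urothelial-like cells reversed under the 11 alternatives tried for the difference between Lpar6 knockout and wild type in urothelial-like cells, and each kept its direction. TMM factors gave -1.86 for Adam28, 2.49 for Dmtn, -1.10 for Anxa8 and 1.28 for Fam25c, and median-of-ratios factors -1.86, 2.49, -1.10 and 1.28; these scalings shift log2 values by 0.40, and Fam25c passes 2-fold under both. A pseudocount of 0.1 CPM gave 2.38 for Dmtn and 5.29 for Sncg, since the added CPM sits close to their wild-type level. Thinning to 5000 UMIs gave 1.92 for Dmtn. Fam25c was 1.08 with at most 10% mitochondrial UMIs, 0.93 with no doublets removed, 1.01 with cells weighted equally, 1.10 over all deposited barcodes and 0.98 after thinning to 5000 UMIs, so it also passes 2-fold (a log2 of 1) with the mitochondrial limit, with equal weights and over all barcodes; the cause was not tested. The count of chromosome 14 genes apart was 27 at 1.5-fold (5.71%, against 0.864% of other genes) and 6 at 4-fold (1.27% against 0.0233%), and 9 to 13 under the other alternatives. Chosen after seeing the data were the count against Cab39l knockout alone, which was 13, and the count without Lpar6. Fam25c over Psca bins moved from 0.53 to 0.73 when states were taken at 1900 UMIs.

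No paired analysis was possible because each group has 1 library. Leave-one-out was not run for the same reason, and differences between animals are not covered. Sncg in wild type rests on 16 UMIs, and immune-like levels of Dmtn, Sncg and Anxa8 on 11 or fewer per library.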
